A study of Bos taurus with 8 samples.

Results

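The genes that build and run the DNA replication fork were examined in granulosa cells of dominant follicles, from High A4 cows and from Control cows. The set holds 40 genes, which encode the origin recognition complex, the partners of the replicative helicase, the kinase that fires origins, the sliding clamp and its loader, the replicative polymerases, the single-strand binding protein and the enzymes that finish the lagging strand. A gene was measured by the probe set that carries its symbol alone, and by the one with the highest mean over the 8 arrays where there were several. This gave 38 of the 40 genes, out of 18010 genes measured in this way on the array. The probe sets of RFC1 and RPA2 also carry the name of a second gene, so both are left without a value. The 38 names are all gene symbols of the assembly ARS-UCD2.0.

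RNA came from the mural and cumulus granulosa cells of 4 High A4 cows, whose follicular fluid had a mean androstenedione (A4) of 356 ng/mL, and of 4 Control cows, with a mean of 1.9 ng/mL. All 8 were beef cows of mixed breed, 75% Red Angus and 25% MARC III, synchronized with gonadotropin releasing hormone, a progesterone-releasing device (CIDR) worn for 7 days and prostaglandin when it came out, and the ovaries were removed about 36 hours later. The follicles were estrogen-active, and the isolated granulosa cells are labelled as at least 94% pure. Groups were defined by the A4 of the follicular fluid and no androgen treatment is described. The High A4 cows were taken from the top of their class and the Control cows from the bottom of theirs, and each gave 1 Affymetrix Bovine Gene 1.0 ST array, so replicate arrays are different animals. Intensities are normalized, linear and in arbitrary units. An intensity of 100 was taken as the noise threshold, after the study's methods. The number of arrays limits the precision.

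DNA replication starts where the origin recognition complex (ORC) has bound and helped to load the MCM ring. In S phase the kinase CDC7 with its activator DBF4, together with CDC45 and the GINS complex, turns the ring into a working helicase. Primase and polymerase alpha then start each strand, the clamp loader RFC places the ring PCNA around DNA, polymerase epsilon extends the leading strand and polymerase delta the lagging strand, and the fragments are trimmed and joined. Granulosa cells divide while a follicle grows and stop dividing once they become luteal cells, and many of these genes are transcribed most in cells about to enter S phase.

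None of the replication fork genes passed the test at an adjusted p under 0.05, but every one of them had a negative log2 fold change. Of the 38 genes, 32 had a mean above 100 in at least 1 group and were tested with limma among 10120 probe sets. In limma 0 of the 32 passed in either direction, where 2.18% of all probe sets tested passed, 0.623% as lower and 1.56% as higher in High A4. At an unadjusted p under 0.05, 22 of the 32 were lower (68.8%) and 0 were higher, where the share of all probe sets tested was 17.1% lower and 4.83% higher. An analysis of variance without moderation also called 0 at an adjusted p under 0.05 and 15 of the 32 at an unadjusted p under 0.05, against 15% lower among all probe sets in that test. The log2 fold changes were between -1.19 and -0.08, with a median of -0.58. In whole-cell RNA such as this, fewer cells in S phase and less of these RNAs per cell cannot be told apart. All 10120 probe sets had a median of -0.16, and 74.3% of them were negative, so a negative sign alone sets no gene apart here. By the criterion the study used (fold change above 1.5 and unadjusted p under 0.05), 16 of the 32 were lower, against 6.23% of all probe sets tested. The scaling of the arrays moved these medians. With each array centred on the median of all its probe sets they were -0.66 for the replication fork genes and -0.24 for all probe sets tested. After quantile normalization they were -0.42 for the replication fork genes and -0.03 for all probe sets, and after centring each array on the median of the probe sets tested they were -0.42 and -0.0037, with 30 of the 32 still negative. Over all probe sets tested 63 fell and 158 rose, against 72 and 145 after centring on all probe sets, 19 and 183 after centring on those tested, 19 and 168 after quantile normalization and 18 and 182 after cyclic loess. None of the 32 passed under any of these scalings.

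The noise filter bears on these counts. Both group means were above 100 in 27 genes, while ORC1, CDC45, POLD1, POLE and DNA2 passed the filter through the Control mean alone. ORC6, GINS4, POLA2, POLE2, FEN1 and TIMELESS were not above 100 in either group. Without a filter, all 38 genes had negative log2 fold changes, again with a median of -0.58, where 50.7% of 26773 probe sets were negative and their median was -0.01. In that fit 26 of the 38 were lower at an unadjusted p under 0.05, against 9.24% of all probe sets. GINS4, POLA2, RFC2 and RNASEH2A then had adjusted p of 0.0341, 0.045, 0.0468 and 0.0386 from limma, against 1.64% of all probe sets called lower. When the filter was set on the mean of all 8 arrays, 30 genes were left, all with negative log2 fold changes, and 20 were lower at an unadjusted p under 0.05, against 16.5%.

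**Figure D1:**
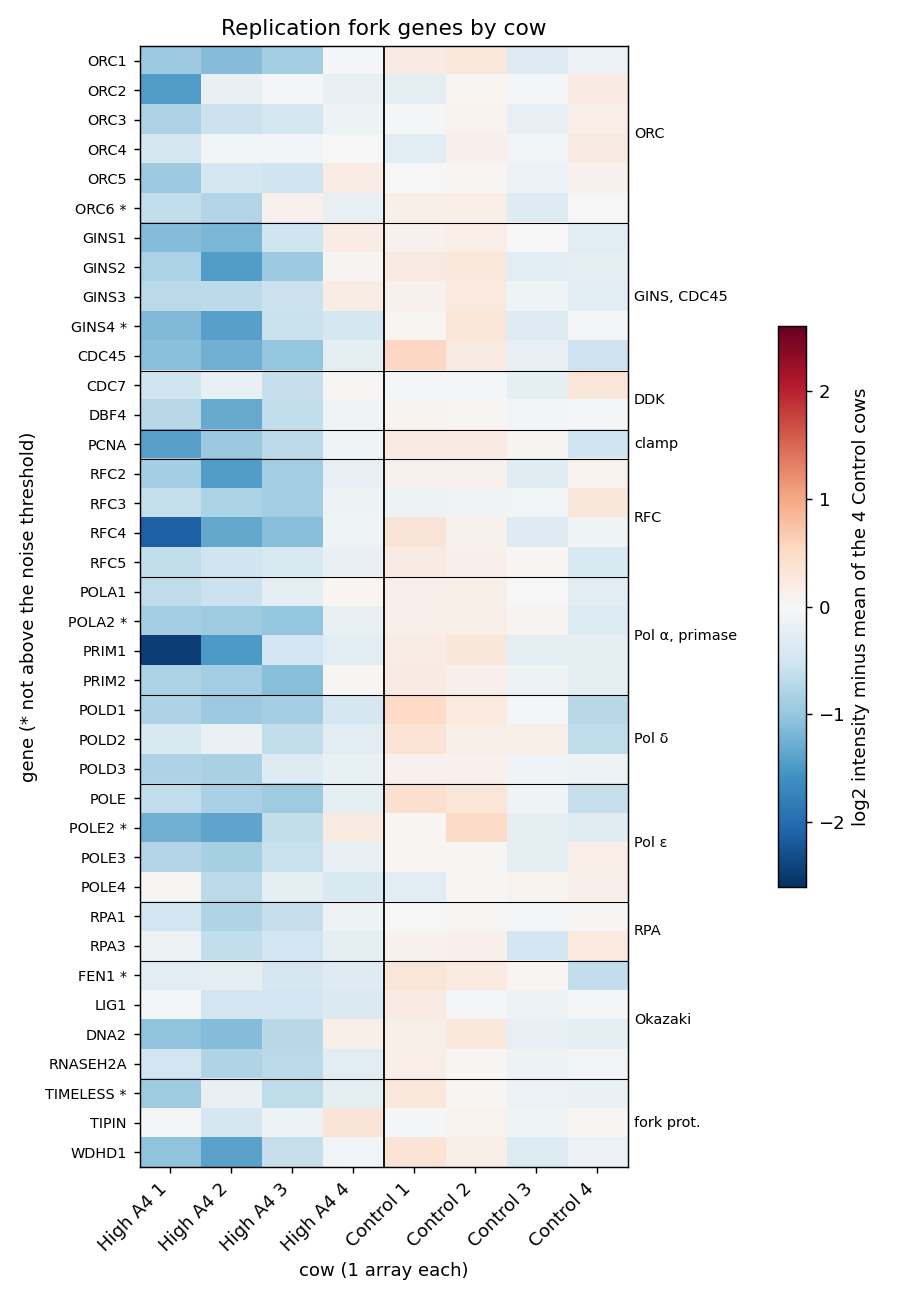
Heat map of the 38 measured replication fork genes (rows, grouped by complex) in the 4 High A4 and 4 Control cows (columns). Colour is the log2 intensity minus the gene's mean over the 4 Control cows, and stars mark the 6 genes not above the noise threshold. The columns of High A4 replicates 1 to 3 are blue for most genes, while that of High A4 replicate 4 is close to the Control columns.

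The origin recognition complex held a wide range of values. ORC1, the largest subunit and an ATPase, had 53.1, 46.9, 55.6 and 99.6 in High A4 and 118, 125, 81.3 and 92.4 in Control. High A4 replicate 4 lay above 2 Control cows, and the other High A4 cows lay below all of them. The log2 fold change was -0.75 ± 0.24 (SE, unadjusted p = 0.0112, limma adjusted p = 0.135). ORC3 had 172, 204, 221 and 274 in High A4 and 290.5, 321, 262 and 341 in Control, so only High A4 replicate 4 reached the Control range (log2 fold change -0.49, adjusted p = 0.143). ORC2 and ORC5 had log2 fold changes of -0.48 and -0.43, and their 95% intervals reached 0.16 and 0.05. In ORC2 the lowest of all 8 cows was High A4 replicate 1 at 75.8, and the rest of the High A4 cows had 181 to 200.4. ORC4 had 411 ± 51.8 in High A4 cows and 456 ± 71.1 in Control cows (SD over the 4 cows of each group), with a log2 fold change of -0.15 and a 95% interval from -0.50 to 0.21. The sign of ORC4 turned with cyclic loess (0.015) and when arrays were centred on the median of the probe sets tested (0.014). ORC6, under the noise threshold, averaged 61.3 ± 17.4 in High A4 cows and 77.5 ± 11.7 in Control cows (SD over the 4 cows of each group).

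The helicase partners had a median log2 fold change of -0.72 over the 4 above the noise threshold. CDC45, which travels with the MCM ring as part of the helicase, had 50.1, 45.2, 53.0 and 91.4 in High A4 and 154, 125, 92.4 and 73.1 in Control. High A4 replicate 4 was above Control replicate 4, and the other High A4 cows were below every Control cow. The log2 fold change was -0.89 ± 0.28 (SE, limma adjusted p = 0.124). GINS2, a subunit of the GINS ring, had 105, 67.8, 96.7 and 194 in High A4 and 219, 225, 153 and 157 in Control (log2 fold change -0.79, adjusted p = 0.17), and only its High A4 replicate 4 lay within the Control range. GINS1 had 261 ± 125 in High A4 cows and 385 ± 51.2 in Control cows, and GINS3 129 ± 42.5 in High A4 cows and 170.4 ± 26.9 in Control cows (SD over the 4 cows of each group). In GINS1 and GINS3, High A4 replicate 4 was the highest or next to the highest of all 8 cows' values. GINS4, the dimmest of the 38 genes, had 20.9, 17.4, 31.3 and 33.7 in High A4 and 48.5, 57.6, 37.1 and 45.1 in Control. Its groups did not overlap, but all 8 values lie under the noise threshold.

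Both subunits of the kinase that fires origins were measured. DBF4, the activating subunit, had 123, 81.2, 130.1 and 190.2 in High A4 and 212, 207, 193 and 199.7 in Control. The groups did not overlap, although High A4 replicate 4 lay close to Control replicate 3 (log2 fold change -0.69 ± 0.22 SE, limma adjusted p = 0.133). The catalytic subunit CDC7 had 317 ± 65.6 in High A4 cows and 393 ± 65.7 in Control cows (SD over the 4 cows of each group), with a log2 fold change of -0.31 and a 95% interval from -0.72 to 0.09. The difference between the log2 fold changes of DBF4 and CDC7 was not tested.

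PCNA and its loader held some of the lowest log2 fold changes of the set. PCNA, the ring that tethers polymerases to DNA, had 282, 385, 457 and 706 in High A4 and 885, 861, 786 and 522 in Control. High A4 replicate 4 was above Control replicate 4, and the rest did not overlap (log2 fold change -0.79 ± 0.27 SE, limma adjusted p = 0.154). RFC2, a small subunit of the clamp loader, had 125, 84.2, 122 and 198 in High A4 and 246, 249, 183 and 244 in Control. Only Control replicate 3 lay below High A4 replicate 4, and the adjusted p of 0.0968 was the lowest of the set after that of RNASEH2A (log2 fold change -0.86, standard error 0.24). RFC4 had 97.1, 169, 195 and 389.7 in High A4 and 532, 456, 333 and 391 in Control. High A4 replicate 1 had the lowest value and replicate 4 lay within the Control range, and the log2 fold change was -1.17 (95% interval -1.95 to -0.38, limma adjusted p = 0.12). RFC3 had 181, 156, 147 and 250.0 in High A4 and 252, 259, 263 and 337 in Control. These groups did not overlap, although High A4 replicate 4 (250.0) lay close to Control replicate 1 (251.6) (log2 fold change -0.62, adjusted p = 0.116). RFC5 had 396 ± 53.3 in High A4 cows and 542 ± 95.5 in Control cows (SD over the 4 cows of each group, log2 fold change -0.45, adjusted p = 0.176).

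**Figure D2:**
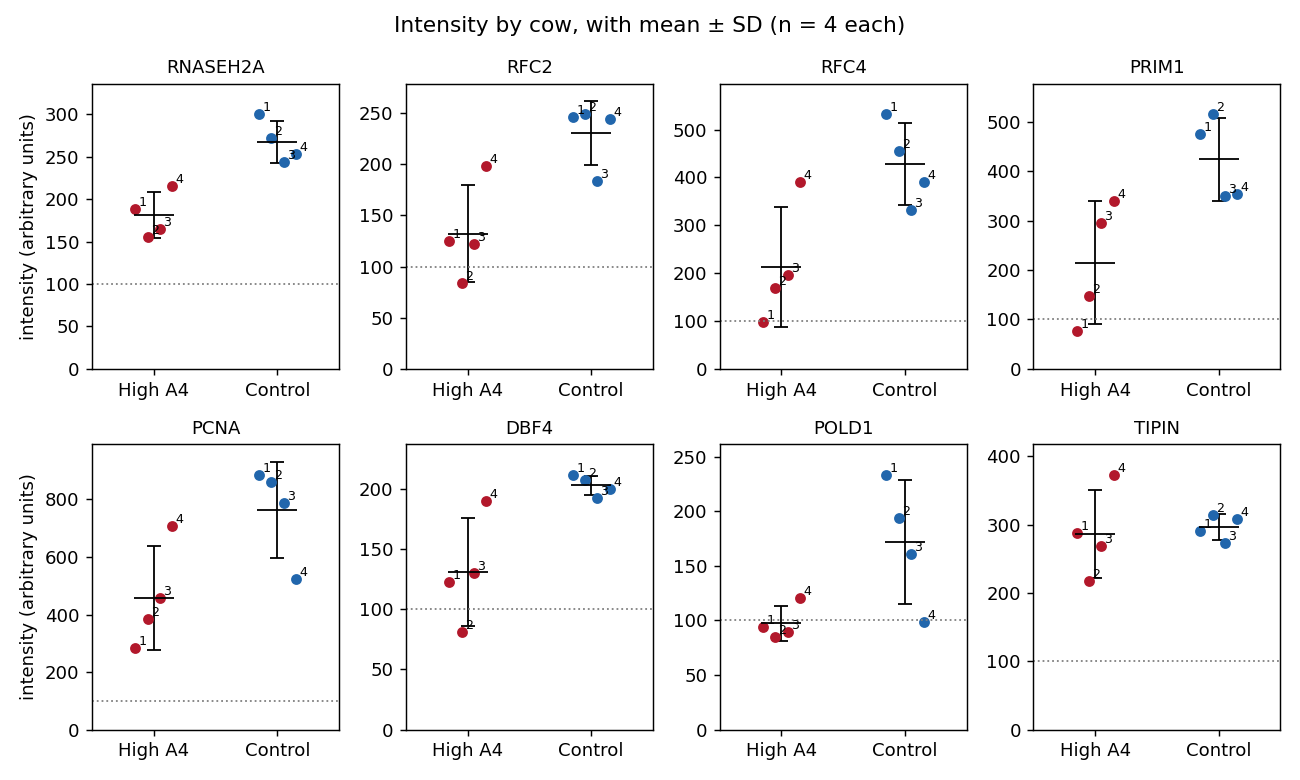
Intensity in arbitrary units of 8 replication fork genes in each High A4 (left) and Control (right) cow. Points are cows with their replicate number, horizontal bars and whiskers are mean ± SD (n = 4 cows each), and the dotted line is the noise threshold of 100. The groups do not overlap for RNASEH2A, PRIM1 and DBF4, and High A4 replicate 4 is the highest High A4 cow in all 8 panels.

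Polymerase alpha and primase start every new strand. PRIM1, the catalytic subunit of primase, had the lowest log2 fold change of the 32 genes and was singled out after its values were seen. It had 76.0, 148, 296 and 340.4 in High A4 and 475, 515, 350.2 and 354 in Control. The groups did not overlap, but the High A4 cows spread widely (SD of 0.997 on the log2 scale in High A4 and 0.287 in Control). The log2 fold change of -1.19 had a 95% interval from -2.11 to -0.26 (limma adjusted p = 0.155). PRIM2, the large subunit of primase, had 133, 126, 109 and 239 in High A4 and 272, 259, 216 and 200.5 in Control, and a log2 fold change of -0.70 (adjusted p = 0.142). High A4 replicate 4 was above 2 Control cows, and the other High A4 cows were below all 4. POLA1, the catalytic subunit of polymerase alpha, had 282 ± 63.7 in High A4 cows and 356 ± 48.8 in Control cows (SD over the 4 cows of each group), and its 95% interval reached 0.05. POLA2, its accessory subunit, had 58.9 ± 17.3 in High A4 cows and 97.3 ± 14.7 in Control cows (SD over the 4 cows of each group), both under the noise threshold.

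In the polymerases that copy the bulk of the genome, the place of Control replicate 4 differed between subunits. That cow was the lowest Control cow for POLD1, POLD2, POLD3, POLE and POLE2 and the highest for POLE3 and POLE4. POLD1, the catalytic subunit of polymerase delta, had 93.9, 85.2, 89.1 and 121 in High A4 and 233, 194, 161 and 98.8 in Control. High A4 replicate 4 was above Control replicate 4, and the High A4 mean of 97.2 was under the noise threshold (log2 fold change -0.77 ± 0.25 SE, limma adjusted p = 0.135). Without Control replicate 4 the log2 fold change of POLD1 was -1.01 and its adjusted p was 0.0288. Another probe set of POLD1 had 25.0 ± 6.88 in High A4 cows and 47.5 ± 11.1 in Control cows (SD over the 4 cows of each group), with a log2 fold change of -0.93. POLD3, an accessory subunit, had 107, 105, 149 and 165 in High A4 and 202, 204, 176 and 173 in Control, with no overlap (log2 fold change -0.54, adjusted p = 0.133). POLD2 had 198 ± 25.8 in High A4 cows and 264 ± 71.2 in Control cows (SD over the 4 cows of each group), and its Control replicate 4 at 161 was the lowest of the 8 cows. POLE, the catalytic subunit of polymerase epsilon, had 99.4, 86.6, 81.2 and 129 in High A4 and 205, 191, 142 and 102 in Control (log2 fold change -0.66, adjusted p = 0.16), where High A4 replicate 4 lay above Control replicate 4 alone. POLE3, a histone-fold subunit, had 219.6, 205, 247 and 320.3 in High A4 and 383, 380.0, 309.6 and 416 in Control. Only High A4 replicate 4 lay above a Control cow, replicate 3 (log2 fold change -0.60 ± 0.17 SE, adjusted p = 0.0991). Its partner POLE4 had a log2 fold change of -0.33 with a 95% interval from -0.72 to 0.06, and POLE2, under the noise threshold, averaged 59.6 ± 33.3 in High A4 cows and 92.9 ± 24.7 in Control cows (SD over the 4 cows of each group).

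RPA1, the large subunit of the protein that coats single-stranded DNA, had 373, 304, 347 and 476 in High A4 and 526, 535, 505 and 532 in Control. The groups did not overlap, and the Control cows lay within an SD of 13.4 (log2 fold change -0.50 ± 0.15 SE, limma adjusted p = 0.114). RPA3, the small subunit, had 713 ± 116 in High A4 cows and 935 ± 194 in Control cows (SD over the 4 cows of each group), with a log2 fold change of -0.38 (adjusted p = 0.266).

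RNASEH2A, the catalytic subunit of the enzyme that removes RNA from RNA-DNA hybrids, had the lowest adjusted p of the set. Its intensities were 189, 155, 164 and 216 in High A4 and 300.0, 272, 244 and 254 in Control. All High A4 cows lay below all Control cows, and the log2 fold change was -0.57 ± 0.14 (SE, 95% interval -0.89 to -0.25, unadjusted p = 0.00269, limma adjusted p = 0.078). DNA2, a nuclease and helicase that trims flaps, had 59.5, 56.3, 74.6 and 136 in High A4 and 137, 148, 106 and 105 in Control. Here High A4 replicate 4 was above 2 Control cows (log2 fold change -0.68, adjusted p = 0.187). LIG1, the ligase that joins the fragments, had 123 ± 20.3 in High A4 cows and 157 ± 16.7 in Control cows (SD over the 4 cows of each group, log2 fold change -0.35, adjusted p = 0.209). FEN1, the flap endonuclease, was under the noise threshold and averaged 45.1 ± 2.48 in High A4 cows and 58.3 ± 15.4 in Control cows (SD over the 4 cows of each group).

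TIPIN, which with TIMELESS stabilizes stalled forks, had the smallest log2 fold change of the 32 genes. It had 287, 217, 268 and 373 in High A4 and 291, 314, 273 and 308 in Control. High A4 replicate 1 lay within the Control range, replicates 2 and 3 below it and replicate 4 above it. The log2 fold change of TIPIN was -0.08 (95% interval -0.45 to 0.30, limma adjusted p = 0.804), and its sign turned with quantile normalization (0.085), cyclic loess (0.10), centring on the median of the probe sets tested (0.085) and without High A4 replicate 2 (0.048). WDHD1, which links the helicase to polymerase alpha, had 107, 84.5, 148 and 212 in High A4 and 285, 247, 175 and 199 in Control, and a log2 fold change of -0.78 (adjusted p = 0.158), again with only High A4 replicate 4 within the Control range. TIMELESS, the binding partner of TIPIN, had 42.0, 70.0, 50.2 and 67.9 in High A4 and 96.0, 82.7, 72.1 and 71.2 in Control, without overlap and under the noise threshold.

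**Figure D3:**
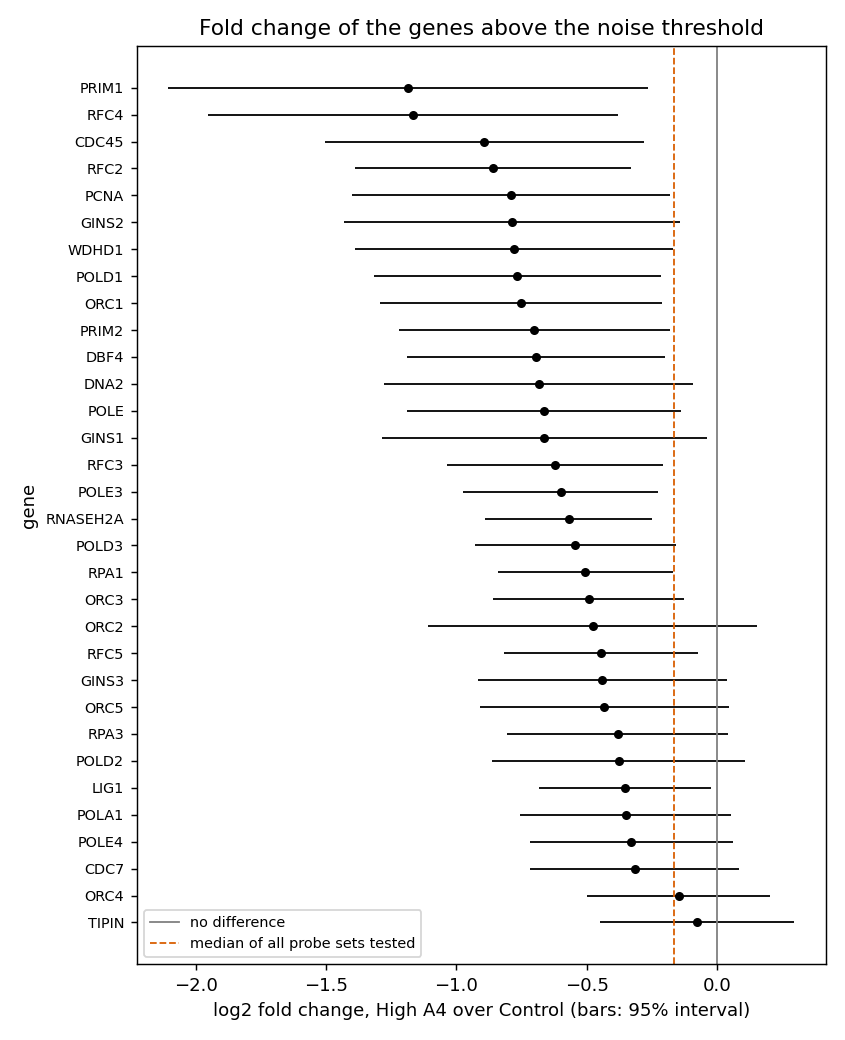
Log2 fold change of High A4 over Control for the 32 replication fork genes above the noise threshold, sorted by size, with 95% intervals from limma (bars). The solid line is no difference and the dashed line the median of all 10120 probe sets tested (-0.16). All 32 points are negative, from PRIM1 (-1.19) to TIPIN (-0.08).

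The complexes overlapped in their log2 fold changes. Their medians, taken over genes above that threshold, were -0.74 for RFC (4 genes), -0.72 for GINS with CDC45 (4 genes), -0.70 for polymerase alpha with primase (3 genes), -0.60 for polymerase epsilon (3 genes), -0.57 for the lagging strand enzymes (3 genes), -0.54 for polymerase delta (3 genes), -0.50 for the kinase (2 genes), -0.48 for ORC (5 genes), -0.44 for RPA (2 genes) and -0.43 for the fork protection genes (2 genes). Within ORC the range was -0.75 to -0.15, and within RFC it was -1.17 to -0.45. By a split chosen after the values were seen, 9 of the 38 genes are in the S phase list of the Seurat package, which comes from human cells. The 8 of these above the noise threshold had a median of -0.79, and the other 24 had a median of -0.54, with no test of the difference.

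The fold change of all probe sets moved with intensity, as the plot of fold change by intensity shows. In ranges of 0.5 on the log2 scale of mean intensity, the median log2 fold change of all probe sets was 0.31 at intensities of 11.3 to 16, -0.19 at 128 to 181 and -0.15 at 512 to 724. Set against the probe sets of their own range, 36 of the 38 replication fork genes lay below the median, with ORC4 and TIPIN above it. Of the 38, 21 lay below the 10th percentile, which 10% of probe sets do by construction. Among them were GINS4, POLA2, CDC45, ORC1, RFC2, RFC4, PRIM1 and PCNA.

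**Figure D4:**
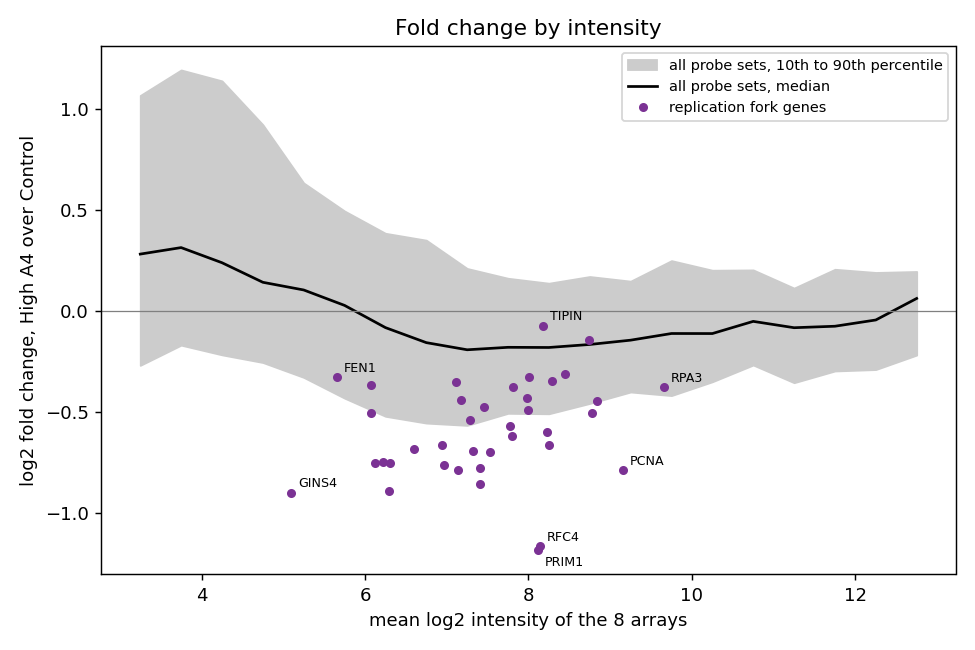
Log2 fold change of High A4 over Control (vertical) against the mean log2 intensity of the 8 arrays (horizontal). The line and grey band are the median and the 10th to 90th percentile of the probe sets in ranges of 0.5 from 3 to 13. Each range holds at least 20 probe sets, and those outside 3 to 13 are left out. Points are the 38 replication fork genes. Of the points, 36 lie below the line and 21 below the band.

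In High A4 replicate 4 most of these genes lay near their Control level. Against the Control mean, the median deviation of the 32 genes was -0.78, -0.83, -0.59 and -0.14 on the log2 scale in High A4 replicates 1 to 4, and 0.13, 0.13, -0.12 and -0.12 in Control replicates 1 to 4. Over all 10120 probe sets tested the medians were -0.23, -0.16, -0.17 and -0.05 in the High A4 cows and between -0.03 and 0.02 in the Control cows. High A4 replicate 4 was the highest High A4 cow in 27 of the 32 genes and reached or passed the lowest Control cow in 24, while High A4 replicates 1, 2 and 3 did so in 5, 4 and 5. All High A4 cows lay below all Control cows in 6 of the 32 genes (DBF4, RFC3, PRIM1, POLD3, RPA1 and RNASEH2A), where the share over all probe sets tested was 10.4%. Without High A4 replicate 4 this held in 23 of the 32, and the share over all probe sets was 23.2%. No gene of the 32 had all High A4 cows above all Control cows, against 2.93% of the probe sets tested. The count of calls turned on the same cow. Without it, 20 of the 32 genes passed in limma as lower, where 5.63% of 10211 probe sets were called lower, and the median log2 fold change was -0.70. The lowest adjusted p were then those of PRIM2 (0.00945, log2 fold change -0.94) and RFC4 (0.00967, log2 fold change -1.52), and PCNA had 0.029 (log2 fold change -1.02). CDC7, LIG1, ORC2, ORC4, POLA1, POLD1, POLD2, POLE, POLE4, RFC5, RPA3 and TIPIN did not pass even then. With array weights 21 genes passed, against 9.28% of all probe sets tested called lower, and of the 21 17 were also among those 20 (81.0% of the 21 and 85.0% of the 20). With Control replicate 4 left out 1 gene passed (POLD1), and with any other single cow left out 0 passed, with 13 to 21 lower at an unadjusted p under 0.05. The SD between cows had a median over the 32 genes of 0.34 in High A4 and 0.22 in Control on the log2 scale, where all probe sets tested had 0.27 in High A4 and 0.18 in Control.

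**Figure D5:**
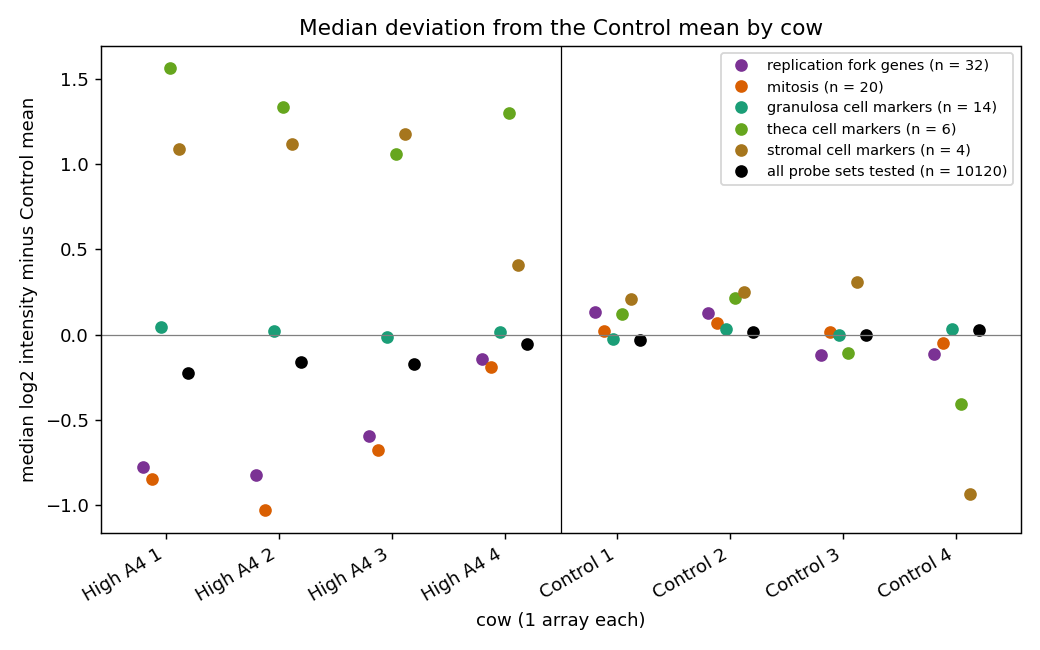
Median deviation of 6 gene sets from their Control mean on the log2 scale (vertical) in each High A4 and Control cow (horizontal). Each set is limited to genes above the noise threshold. The replication fork and mitosis sets are low in High A4 replicates 1 to 3. In replicate 4 they are nearer 0 (-0.14 and -0.19) but still below every Control cow. The granulosa cell markers stay near 0 in all 8 cows.

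Other genes of DNA replication were taken from lists of the same pathway. Of 13 licensing and origin firing genes above the noise threshold, GMNN fell, 12 did not pass, and all 13 were lower at an unadjusted p under 0.05, with a median log2 fold change of -0.62. Of all probe sets tested 0.623% fell and 17.1% were lower at that unadjusted p, and GMNN and TICRR were above the noise threshold in the Control mean alone. GMNN, the inhibitor of licensing, had 55.3 ± 25.5 in High A4 cows and 123 ± 20.4 in Control cows (SD over the 4 cows of each group, log2 fold change -1.24, limma adjusted p = 0.0476), with the High A4 mean under the noise threshold. Of 7 genes of deoxynucleotide supply, TK1, the thymidine kinase of the salvage pathway, fell to 415 ± 102 in High A4, against 804 ± 154 in Control (SD over the 4 cows of each group, log2 fold change -0.96, limma adjusted p = 0.0421). The other 6 did not pass, and the median of the 7 was -0.51. The calls of GMNN and TK1 were lost without any one of High A4 replicates 1 to 3 or Control replicates 1 to 3 (GMNN also without Control replicate 4), with adjusted p up to 0.17 and 0.149, and both were lost with quantile normalization, cyclic loess and centring on the probe sets tested. Of 14 fork accessory and checkpoint genes 0 passed in limma and 6 were lower at an unadjusted p under 0.05. Their median was -0.30, and the lowest unadjusted p were those of ETAA1 (-0.48, adjusted p = 0.105), which activates the kinase ATR, and DSCC1 (-0.82, adjusted p = 0.124), a subunit of an alternative clamp loader. Above the noise threshold in the Control mean alone were DSCC1 and RAD1, which are among the 6, and TONSL, which is not. Of 7 genes that place histones or methylation behind the fork 0 passed and 6 were lower at an unadjusted p under 0.05 (median -0.66), led by PCLAF, a PCNA-binding factor (-0.94, adjusted p = 0.0854), and CHAF1B (-0.73, adjusted p = 0.116). CHAF1B was also above the noise threshold in the Control mean alone.

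The polymerases of DNA repair, of damage bypass and of mitochondria were taken for contrast with the replicative ones. Of 7 above the noise threshold 0 passed in limma, 7 had negative log2 fold changes and 5 were lower at an unadjusted p under 0.05. Over all probe sets tested 0.623% fell, 74.3% were negative and 17.1% were lower at that p. The median of the 7 was -0.59, or -0.42 over the 13 measured. POLG2, the accessory subunit of the mitochondrial polymerase, had 88.5 ± 13.7 in High A4 cows and 132 ± 11.1 in Control cows (SD over the 4 cows of each group, log2 fold change -0.59, adjusted p = 0.0727). It was above the noise threshold in the Control mean alone. POLI, a polymerase of damage bypass, had a log2 fold change of -0.70 (adjusted p = 0.159), while REV3L had -0.10 (adjusted p = 0.795). No test was made of the replicative against the other polymerases.

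Genes of mitosis were low in the same cows. Of 20 above the noise threshold, BUB1, NDC80 and ANLN fell and 17 did not pass, with a median log2 fold change of -0.72, where 0.623% of all probe sets tested fell. These 3 calls were lost without any one of High A4 replicates 1 to 3 or Control replicates 1 to 3 (NDC80 and ANLN also without Control replicate 4), and with quantile normalization, cyclic loess and centring on the probe sets tested. At an unadjusted p under 0.05 in limma 16 of the 20 were lower, against 17.1% of all probe sets tested. All High A4 cows lay below all Control cows in 12 of the 20, against 10.4% of all probe sets tested. Over the 20 genes, the median deviation from the Control mean was -0.85, -1.03, -0.68 and -0.19 in High A4 replicates 1 to 4. The granulosa cell markers had a median log2 fold change of -0.01. None of the 14 markers, all above the noise threshold, passed in limma or reached an unadjusted p under 0.05, and their summed intensity was 39774 to 43003 in High A4 and 37471 to 40987 in Control. For INHBA, a subunit of inhibin and activin, all High A4 cows (5860 to 6256) lay above all Control cows (5052 to 5515), with a log2 fold change of 0.22 and an adjusted p of 0.272.

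Some markers of the cells around the granulosa layer differed between High A4 and Control. Of 9 theca cell markers measured, 6 were above the noise threshold and CYP17A1 (log2 fold change 2.59), ALDH1A1 (1.87) and OGN (1.53) rose. Over all probe sets tested 1.56% rose. INSL3 had a log2 fold change of 1.13 (adjusted p = 0.172), PTCH1 had -0.14 and NR2F2 had -0.18. ALDH1A1 and OGN were above the noise threshold in the High A4 mean alone, and OGN was not tested with the filter on the mean of all 8 arrays or without High A4 replicate 3. The calls of ALDH1A1 and OGN held in each fit with 1 cow left out that tested them, while that of CYP17A1 was lost without Control replicate 1, 2 or 4 (adjusted p up to 0.072) and with the analysis of variance (adjusted p = 0.153). The summed intensity of the 9 was 2093 to 4827 in High A4 and 981 to 1851 in Control. Of 15 stromal cell markers 4 were above the threshold, of which DCN rose (log2 fold change 1.35), a call that held without High A4 replicate 4 and was lost without any other cow (adjusted p up to 0.129), with the analysis of variance (0.178) and with the filter on the mean of all 8 arrays (0.0683). The other stromal markers above the threshold also had positive log2 fold changes (COL1A1 0.69, LUM 0.80 and FBLN1 0.87). DCN and COL1A1 were higher at an unadjusted p under 0.05 in limma, against 4.83% of all probe sets tested. The stromal sum was 2099 to 3918 in High A4 and 936 to 2973 in Control. The 12 endothelial markers summed to 481 to 543 in High A4 and 384 to 444 in Control. ENG alone of these was above the threshold (log2 fold change 0.69, limma adjusted p = 0.13). None of the 15 leukocyte markers was above the threshold (464 to 1005 in High A4 and 435 to 938 in Control), and 1 of 8 smooth muscle and pericyte markers was (477 to 682 in High A4 and 588 to 654 in Control). Of 8 luteal markers 6 were above the threshold and 0 passed in limma, with 2 negative and 4 positive log2 fold changes. At an unadjusted p under 0.05 PTGFR was lower (log2 fold change -1.13), and CYP11A1 (0.48) and LHCGR (0.56) were higher. Over all probe sets tested 17.1% were lower and 4.83% higher at that p. The 8 summed to 14342 to 15093 in High A4 and 9091 to 13730 in Control, without overlap. Taken singly, each of the 8 overlapped between the groups, and the sum rests mostly on HSD3B1, CYP11A1, LHCGR and SCARB1. In High A4 replicate 4, whose replication fork genes were near the Control level, the theca markers summed to 2438 and the stromal markers to 2099, above the Control range for theca markers and within it for stromal markers. LUM was the largest part of the stromal sum in each cow. Of the 4 stromal markers above the threshold, DCN (227) and COL1A1 (166) in that replicate were above every Control cow, and LUM and FBLN1 were within the Control range. The part of the cells around the granulosa layer in the values of the replication fork genes was not tested.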

How the data were processed

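Affymetrix Bovine Gene 1.0 ST arrays were hybridized with granulosa cell RNA, 1 array for each of 4 High A4 and 4 Control cows. Normalized intensities of 26773 probe sets, linear and in arbitrary units, were deposited by the authors as 1 table. Robust Multi-Array Averaging is named in the paper, Affymetrix Expression Console and GCRMA in the submitters' processing notes, and it is not settled which of them made these intensities. The version of the normalization tool, the scan dates and any batches are not stated in the sources used here. In the platform annotation 18457 probe sets carried 1 gene symbol, 688 several and 7628 none.

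Intensities were taken to log2, and probe sets whose mean was above 100 in High A4, in Control or in both were fitted with limma 3.58.1 in R 4.3.3 (lmFit and eBayes), with Benjamini-Hochberg adjustment over all 10120 of them and a threshold of 0.05. All p and 95% intervals of genes are from limma unless an analysis of variance is named. Values given for genes under the noise threshold come from the same fit without the filter. The fit was tested on simulated data with independent normal errors for each probe set, so that test does not bear on genes that vary together. Groups come from the sample labels.

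The replication fork genes and all lists were chosen with earlier results of these data known. The rule for named genes gives every cow's value for genes that passed, the 12 with the lowest unadjusted p, PCNA, ORC1 and the gene with the smallest change, and names from each further list those that passed or else up to 2 with the lowest p. Every cow's value of ORC3, GINS2, GINS4, PRIM1, POLE, DNA2, TIMELESS and WDHD1 was added after the values were seen. So was the mention of REV3L, PTCH1, NR2F2, INSL3, TICRR, RAD1, TONSL, PTGFR, CYP11A1, LHCGR, HSD3B1, SCARB1, INHBA, COL1A1, LUM and FBLN1. Seurat 5.3.0 supplied the S phase list. Alternatives were other noise filters, scalings, an offset of 50, other variance models, analysis of variance, the replicate number as a block, the mean of a gene's probe sets, the study's own criterion and each cow left out. Centring on the median of the probe sets tested was chosen after seeing the data.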

Additional observations from a re-analysis of the deposited data

Results flagged for a closer look

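In 7 of 76 groups of 4 cows tested over the 38 genes, 1 cow lay far from the other 3 by Dixon's criterion, which chance passes in about 1 of 20 groups. In 4 of them it was High A4 replicate 4 above the other High A4 cows, with 99.6 against 46.9 to 55.6 for ORC1, 192 against 103 to 115 for GINS3, 91.4 against 45.2 to 53.0 for CDC45 and 84.8 against 48.0 to 52.4 for POLA2, the last under the noise threshold. High A4 replicate 1 was low for ORC2, with 75.8 against 181 to 200.4. Control replicate 3 was low for RFC2, with 183 against 244 to 249, and Control replicate 4 was high for RFC3, with 337 against 252 to 263. The 76 groups come from the same cows and are not independent, so 7 of 76 is no test against 1 of 20.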

How the results depend on the processing

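The median log2 fold change of the replication fork genes stayed negative under every setting, from -0.70 to -0.41, and 0 genes were called higher under any. The 0 genes called lower became 4 without a noise filter (of 38), 21 with array weights, 16 under the study's criterion (unadjusted p with a fold change above 1.5, against 6.23% of all probe sets) and 0 to 20 with 1 cow left out. They stayed 0 with the other settings, the replicate block among them. Among single genes, 553 values under an alternative kept their sign and their side of the threshold, 44 passed it with the same sign and 6 turned sign. The 6 were TIPIN with quantile normalization (0.085), cyclic loess (0.10), centring on the probe sets tested (0.085) and without High A4 replicate 2 (0.048, in a range of -0.21 to 0.048 with 1 cow left out), and ORC4 with cyclic loess (0.015) and that centring (0.014). The further lists are licensing, fork accessory, repair polymerases, chromatin assembly, deoxynucleotides and mitosis. In that order, the calls were 1, 0, 0, 0, 1 and 3 of 13, 14, 7, 7, 7 and 20 genes. Without a filter they became 2, 1, 1, 2, 2 and 9 of 16, 20, 13, 8, 9 and 20, against 1.64% of all probe sets. With array weights they became 9, 4, 1, 5, 4 and 15, against 9.28%. Under the study's criterion they became 8, 3, 4, 4, 2 and 15, against 6.23%. With 1 cow left out they lay between 0 and 6, 4, 2, 2, 3 and 16. Each was highest without High A4 replicate 4, where 5.63% of all probe sets were called lower. They were 0 in every list with the mean of all 8 arrays above 100, quantile normalization, cyclic loess, centring on the probe sets tested, analysis of variance and the replicate block. Licensing also had 0 with the offset and with the intensity trend. The causes were not tested. POLD1 averaged over its probe sets lay under the noise threshold and gave no value. The cows' numbers are shared between groups but pair no animals (the deviations of same-numbered cows correlated at 0.19, -0.22, -0.11 and 0.20). The replicate block left 0 of the 32 called, with 20 lower at an unadjusted p under 0.05 in limma. The share of all probe sets tested at that p was 17.1% in the fit without the block. With the block 25 probe sets fell and 135 rose over the array, against 63 and 158. Signal near the noise threshold limits 11 of the 38 genes, whose High A4 mean is under 100.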
